A study of Sus scrofa with 2 samples.

Results

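Pig chromosome 8 was followed from end to end by array-based comparative genomic hybridization (aCGH) in 1 liver tumor and 1 sample of non-tumor liver. The chromosome was defined as all non-control probes whose deposited position lay on chromosome 8. This gave 10191 of the 177440 probes of the array, or 5.74% of the 177433 nuclear ones, which cover chromosomes 1 to 18 and X. The probes were 45 bases long, lay between positions 4626 and 119983645 and had a median distance of 10175 bp, with a largest gap of 184 kb.

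Both samples were liver of female pigs, a species used as a large animal model of liver disease. The tumor was labelled angiosarcoma-like, which names its resemblance to a malignant tumor of vessel-lining cells. According to the labels, pigs received 200 mg/kg diethylnitrosamine (DENA), a carcinogen that is activated in the liver, and the liver was removed 10 months later. The labels do not say whether the animal behind the control tissue had also been given DENA. Tumors had been micro-dissected from paraffin-embedded material per the study's methods, and such material can still hold vessel, stroma and liver cells beside tumor cells. In both hybridisations Cy3 marked the tissue, and Cy5 marked DNA of reference liver. Each tissue was measured on 1 array, the slides were different ones, and the effect of slide and that of tissue cannot be told apart. For the same reason no test between them was possible. Errors below are the spread over probes of 1 array and do not cover differences between animals.

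In aCGH, DNA of a tissue and of a reference compete for the same probes. The log2 ratio of their signals falls where the tissue has lost copies and rises where it has gained them. Loss of 1 copy in only a part of the dissected cells gives a shallower fall. Sarcomas often carry gains and losses of whole arms or of short segments, so a profile is read both as a level of the whole chromosome and as steps along it.

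Chromosome 8 of the pig carries several genes that matter in vessel tumors and liver. For these themes, 4 lists with 40 genes in all were drawn up from genes of this chromosome, and the gene table of the assembly Sscrofa11.1 places each of them there. The receptor genes PDGFRA, KIT and KDR, which drive growth of mesenchymal, blood-forming and endothelial cells, stood next to each other among its 686 coding genes. The same chromosome carries ALB and AFP for albumin and alpha-fetoprotein, the adjacent fibrinogen genes FGG, FGA and FGB, and the tumor suppressor gene FBXW7. FGFR3 and NSD2, a growth factor receptor and a histone methyltransferase, had the places 26 and 28 in the gene order. The build of the array positions is not given in the sources used here, and the last gene of that table ended at 138789966, beyond the last probe. No probe was therefore assigned to a gene, and all results are given by array position.

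Chromosome 8 had the highest median log2 ratio of all 19 chromosomes on both arrays, and on both it was also the dimmest chromosome. On the tumor array the median was 0.11 (SD over probes 0.53, n = 10190 probes), with a 95% interval of the median from 0.095 to 0.11. On the control array it was 0.054 (SD over probes 0.56, n = 10189), with an interval from 0.041 to 0.065. With the deposited ratio, the control median was 0.0063 and ranked 2nd, so the chromosome was then the highest in the tumor only. The non-tumor tissue thus stood on the same side of 0 as the tumor. Its median was the lower one with this centring and the higher one with centring on the mode of the autosomal probes, where the tumor had 0.053 and the control tissue 0.13. The means over probes had the other order even with this centring, 0.087 in the tumor and 0.099 in the control tissue. Chromosome 15, one of the 2 autosomes closest in number of probes, followed with 0.087 on the tumor array and had 0.031 on the control array. Chromosome 6, the other one, had -0.11 and -0.03.

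The median reference signal on chromosome 8 was 83.1 on the tumor and 66.0 on the control array, compared with 116 and 91.6 over all nuclear probes. The tissue channels were dimmer still, with medians of 51.8 for the tumor and 36.4 for the control tissue. Both channels were well above background for 73.6% of the chromosome 8 probes on the tumor and for 68.3% on the control array. Both shares were the lowest of the 19 chromosomes, compared with 79.5% and 75.8% over all nuclear probes. After a lowess trend on local brightness had been removed, where local brightness was the average log2 signal of the reference within 250 kb as read from the opposite array, the median of chromosome 8 was 0.02 on the tumor and 0.0096 on the control array. It then ranked 3rd and 6th of the 19 chromosomes. The plot of chromosome medians against reference signal sets chromosome 8 beside the others.

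**Figure D1:**
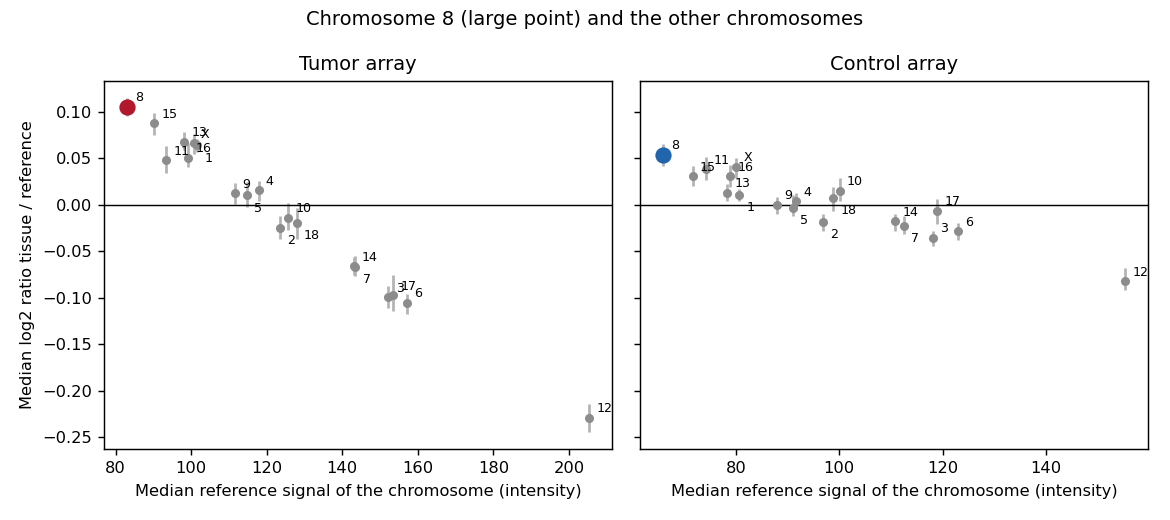
Median log2 ratio of tissue over reference (vertical axis, with 95% interval) against the median reference signal in intensity units (horizontal axis) for chromosomes 1 to 18 and X, on the tumor array (left) and the control array (right). Chromosome 8, the large point, sits at the upper left on both arrays, at 0.11 and 83.1 on the tumor and at 0.054 and 66.0 on the control array.

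The high median was spread over most of the length of the chromosome. Of its 120 windows of 1 Mb, 94 had a median above 0 on the tumor array, or 78.3%, against 57.1% of the 2271 windows of all 19 chromosomes. On the control array 91 windows lay above 0, or 75.8%, against 54.6%. With the brightness trend removed, 62.5% of the tumor windows lay above 0, against 51.7%, and 54.2% of the control windows, against 50.3%. The control share was 58.3% with the deposited ratio, against 40.4%, and 94.2% with centring on the mode, against 82.2%. The tumor shares there were 81.7% against 58.7% and 68.3% against 47.3%. At or above 0.25 stood 23 tumor windows, or 19.2% against 9.60%, and 5 control windows, or 4.17% against 0.705%. With the main settings, each of these shares was the highest of the 19 chromosomes on its array. The shares at or above 0.25 also depended on the processing. In the tumor the share was 9.17% with centring on the mode, 10.8% with the deposited ratio, 7.5% with normexp and 0% with the brightness trend removed. In the control tissue it was 10.8% with centring on the mode and 0% with the deposited ratio, over probes well above background or with the brightness trend removed. At or below -0.25 stood 4 tumor windows, or 3.33% against 11.6%, and 0 control windows, against 0.308%. With normexp this share was 3.33% in both tissues, and with the brightness trend removed it was 0 in both. The longest unbroken run above 0 covered 18 windows from 76 to 94 Mb in the tumor and 22 windows from 39 to 61 Mb in the control tissue.

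In stretches of 10 Mb, the tumor was lowest at the start of the chromosome and highest in the stretches from 50 to 60 Mb and from 80 to 90 Mb. The first stretch had a tumor median of -0.21 and a control median of -0.04. The stretch from 50 to 60 Mb had 0.24 in the tumor and 0.13 in the control tissue, and that from 80 to 90 Mb had 0.23 and 0.10. In the stretch from 60 to 70 Mb, which lies between them, the tumor fell back to 0.04 and the control tissue to 0.0045. The last stretch was near 0 in the tumor, with 0.01, and had 0.06 in the control tissue. The first of these stretches had the brightest reference on the tumor array and the 2 high ones had the dimmest. The reference signal was 189 in the first, 60.2 from 50 to 60 Mb, 113 from 60 to 70 Mb, 53.5 from 80 to 90 Mb and 108 in the last.

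**Figure D2:**
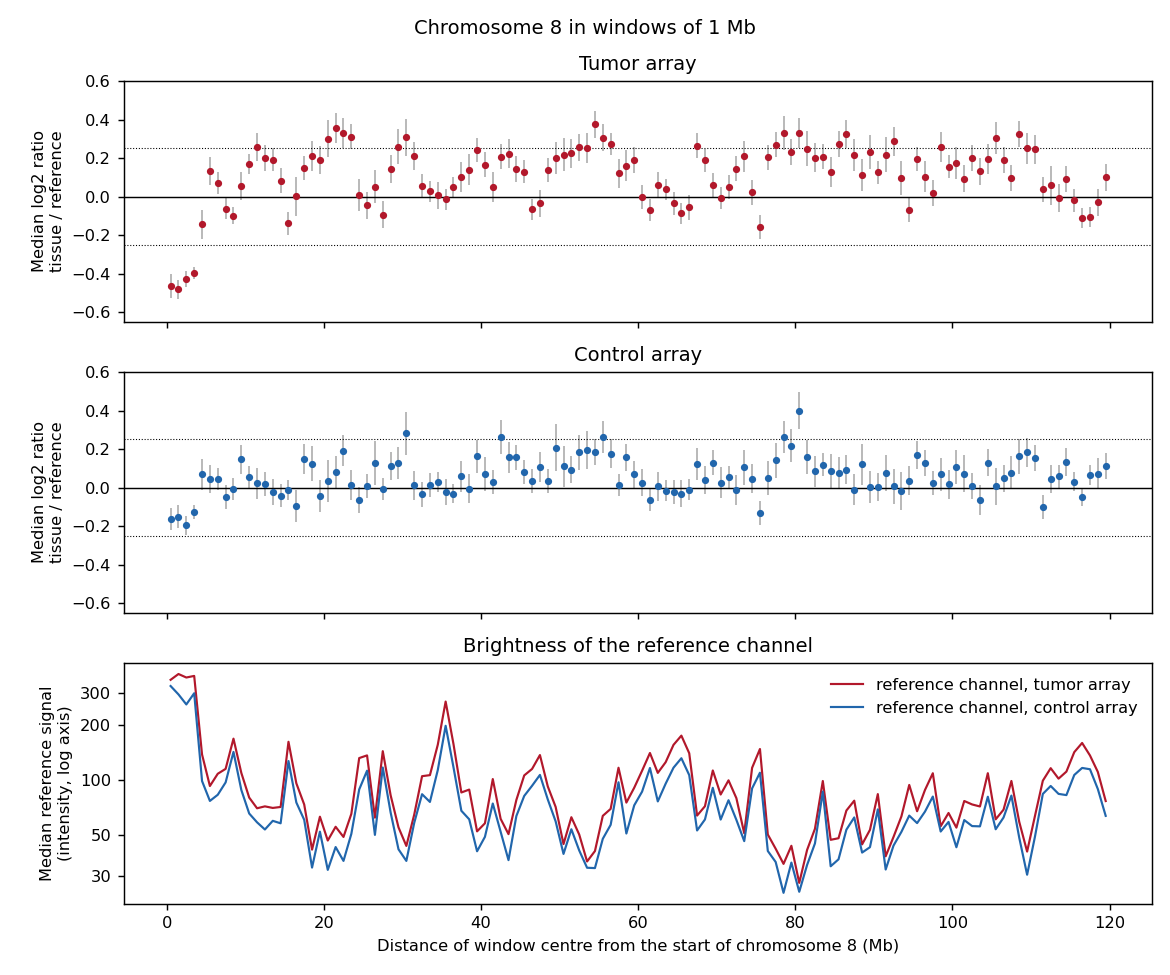
Chromosome 8 in windows of 1 Mb, plotted against the distance from its start in Mb. Points are window medians of the log2 ratio of tissue over reference on the tumor array (top) and the control array (middle), bars are the standard error from the probes of the window, dotted lines mark -0.25 and 0.25, and lines at the bottom give the median reference signal on a log axis. The first 4 tumor windows sit between -0.48 and -0.40, below all other windows, where the reference signal is between 356 and 383.

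The 4 lowest tumor windows were the first 4 of the chromosome, and they stood apart from the rest. Their medians were -0.46 from 0 to 1 Mb, -0.48 from 1 to 2 Mb, -0.43 from 2 to 3 Mb and -0.40 from 3 to 4 Mb. In the control tissue the same windows had -0.16, -0.15, -0.20 and -0.13, and 3 of them were the lowest of the chromosome on the control array. So both tissues dipped here, the tumor more deeply in each of the 4 windows. These windows were named for their low tumor medians, so that order is partly set by the choice. The next lowest tumor window, from 75 to 76 Mb, had -0.16 in the tumor and -0.13 in the control tissue.

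The 5 highest tumor windows were scattered over the chromosome. The window from 54 to 55 Mb had 0.37 in the tumor and 0.18 in the control tissue. The window from 21 to 22 Mb had 0.36 and 0.08, and that from 80 to 81 Mb had 0.33 and 0.40. The windows from 22 to 23 Mb and from 78 to 79 Mb both had 0.33 in the tumor, with 0.19 and 0.26 in the control tissue. All 5 were above 0 on both arrays, and 1 was higher in the control tissue than in the tumor. The 3 highest control windows were those from 80 to 81 Mb with 0.40, from 30 to 31 Mb with 0.28 and from 42 to 43 Mb with 0.27, where the tumor had 0.33, 0.31 and 0.21. The window from 80 to 81 Mb was the dimmest of the chromosome on the tumor array, with a reference signal of 27.4, and only 44.0% of its probes were well above background in both channels there and 40% on the control array.

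The profile varied less along chromosome 8 than along most other chromosomes of the tumor. The SD over its windows was 0.16 on the tumor array, which ranked 17th of 19, and 0.096 on the control array, which ranked 5th. Without the first 5 Mb the SD of the tumor was 0.13. The median standard error of a window from its own probes was 0.069 on the tumor and 0.074 on the control array. After the brightness trend had been removed, the SD over windows was 0.067 on both arrays, close to these standard errors. It then ranked 17th of the 19 chromosomes on the tumor array and 1st on the control array. Neighbouring windows still correlated then, with r of 0.21 in the tumor and 0.20 in the control tissue.

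The low start of the chromosome was the longest called interval. Intervals were searched on each chromosome by a recursive score that sums the log2 ratios of a stretch and sets the sum against the noise between neighbouring probes, scaled to the square root of the stretch's probe number. A call needed 3 probes or more, a score of 6 or more and a mean of 0.25 or more in size. On the tumor array, the interval from 4626 to 4624120 held 393 probes, scored 20.3 and averaged -0.41 (SD over probes 0.39). In the control tissue these probes averaged -0.09 (SD 0.42), and there no interval of chromosome 8 was called. With normexp background correction, however, a loss was called at the start in the control tissue too, from 4626 to 3759245 with 326 probes and a mean of -0.37, and the medians of the 393 probes were -0.54 in the tumor and -0.33 in the control tissue. Subtraction of the control array from the tumor array left a loss from 27751 to 4724020 with 401 probes and a mean of -0.32. In the tumor 353 of the 393 probes lay below 0, and in the control tissue 257. The interval was called for its low tumor ratios, so the gap to the control tissue is partly set by the choice. Both channels were well above background for 367 of its probes, or 93.4%, on the tumor array and for 370, or 94.1%, on the control array, compared with 72.8% and 67.2% over the rest of the chromosome. Restricted to those probes, the median was -0.42 in the tumor and -0.14 in the control tissue.

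The change at the right end of this interval was gradual on the tumor array. In bins of 0.5 Mb the tumor median stayed between -0.55 and -0.38 over the first 7 bins, then rose to -0.34, -0.25 and -0.06, and was 0.17 in the bin that began at 5 Mb. The control median lay between -0.29 and -0.09 over the first 7 bins and reached 0.04 in the bin that began at 4 Mb. Over the 50 probes that follow the interval, up to 5212420, the median was 0.10 in the tumor and 0.094 in the control tissue. The means there were 0.13 and 0.05. Over the rest of the chromosome the median was 0.12 in the tumor and 0.063 in the control tissue, and the mean was 0.11 in both.

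**Figure D3:**
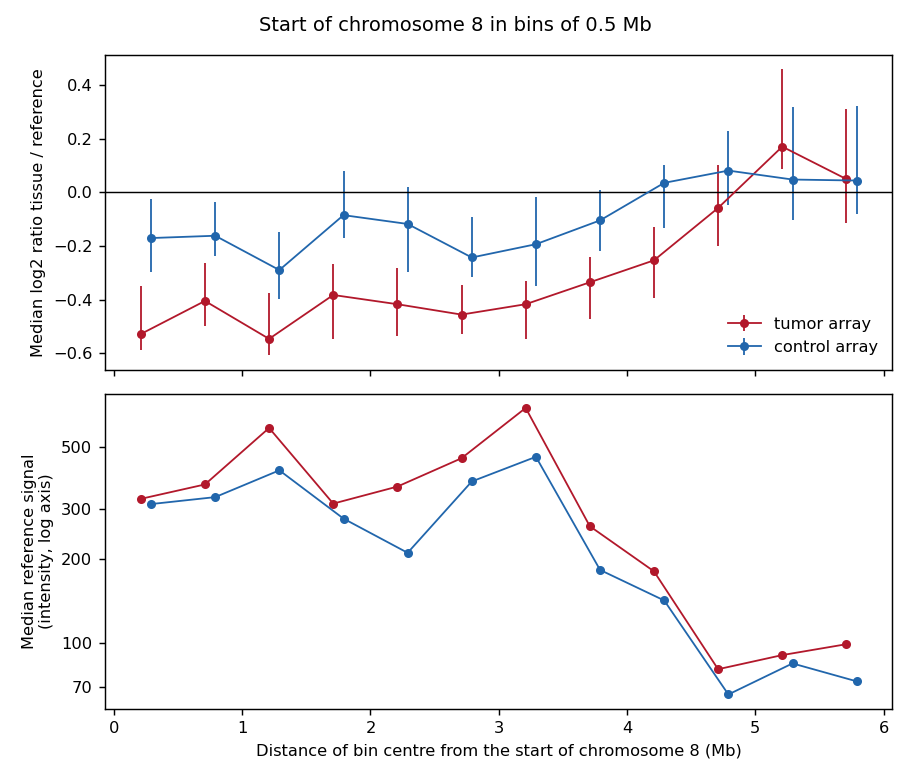
The first 6 Mb of chromosome 8 in bins of 0.5 Mb, plotted against the distance from its start in Mb. Points in the upper panel are medians of the log2 ratio of tissue over reference with 95% intervals over probes, and points in the lower panel are median reference signals on a log axis. The tumor lies below the control tissue over the first 10 bins, and both rise toward 0 or above between 3.5 and 5 Mb, where the reference signal falls.

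Brightness moved with this interval too. The median reference signal on the tumor array was 339 inside it and 79.3 over the rest of the chromosome, and on the control array it was 273 and 63.2. Of the probes in the middle of its brightness range, between the lower and the upper quartile, 197 lay in the interval and had a tumor median of -0.44. The 10310 probes of the other autosomes in the same brightness range had -0.37 (SD over probes 0.35). The other 20 probes of chromosome 8 in this range had -0.05. On the control array, the corresponding medians were -0.13 inside the interval, -0.16 on the other autosomes and -0.07 for the 20 probes. With the brightness trend removed, the interval had a median of -0.06 in the tumor and 0.02 in the control tissue. It was then no longer called as a whole, and only its last 4 probes, from 4593551 to 4624120, were called, with a mean of -1.25 (SD 0.97) and 1 probe well above background in both channels.

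The first 5 Mb of the chromosome had a median of -0.40 on the tumor and -0.12 on the control array. Among the first 5 Mb of the 19 chromosomes these values ranked 16th and 15th from the top, so other chromosomes had starts that were lower still on both arrays. The last 5 Mb of chromosome 8 had -0.04 on the tumor and 0.04 on the control array, the highest of the 19 chromosome ends on both. The 2 ends of the chromosome thus differed from each other in the tumor by more than its 10 Mb stretches between 10 and 120 Mb did.

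The only other called interval on chromosome 8 was a loss of 3 probes from 112296851 to 112317245 in the tumor, which scored 6.20 and averaged -1.43 (SD 0.26). The log2 ratios of these probes were -1.71, -1.39 and -1.20 in the tumor and 0.13, -1.38 and -0.24 in the control tissue. None of the 3 was well above background in both channels of the tumor array. The middle and the last of them were not well above background in any channel of either array, so their log2 ratios have no order, neither between the tissues nor between the probes. For the first of them, GT_Pig_chr8_57440, the tumor signal was 12.3 and not well above background, whereas the reference signal was 71.6, so the tumor was at least 2.13-fold lower, counted to the lowest signal well above background. With normexp the tumor median of the 3 probes turned from -1.39 to 0.05, and the interval was not called with normexp, with the larger noise estimate or over probes well above background. In all, called intervals held 3.89% of the chromosome 8 probes on the tumor array against 7.07% of all nuclear probes, and 0 on the control array against 0.178%.

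Most of the remaining chromosome lay in 1 wide interval on each array that passed the score and was dropped by the limit on the mean. On the tumor array it ran from 9807776 to 110968595 and held 8556 probes with a mean of 0.12. On the control array it ran from 9140851 to 111026870 and held 8616 probes with a mean of 0.12. The limits and the mean of this raised part were thus almost the same on both arrays, but the medians were not. The median was 0.15 in the tumor and 0.066 in the control tissue, and over the probes well above background in both channels it was 0.17 and 0.045. With the brightness trend removed, the probes of these intervals had means of -0.0064 in the tumor and 0.046 in the control tissue. No wide interval passed the score in the tumor then, and that of the control tissue ran from 22225901 to 119932770 with a mean of 0.051.

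When the limit on the mean was applied during the search, this raised part broke up into shorter gains. The tumor then had 16 gains of 38.7 Mb in all besides the 2 losses, and the control tissue had 16 gains of 16.6 Mb. With the brightness trend removed as well, 1 gain of 3 probes and 0.040 Mb was called in the tumor and 6 gains of 0.623 Mb in all in the control tissue, and none of the 16 tumor gains was called over its length. Over probes well above background, the tumor had 11 gains and 1 loss of 58.8 Mb in all, and the control tissue 3 gains of 4.61 Mb. With the deposited ratio, the tumor had 16 gains and 2 losses of 35.3 Mb in all, and the control tissue 15 gains of 5.64 Mb. Both settings were chosen after seeing the data, and the length called over all chromosomes is not given for them. Without these changes, calls held 36.3% of the chromosome 8 probes in the tumor against 32.1% of all nuclear probes, which is near the background. In the control tissue they held 14.3% against 5.61%. The gains of both arrays shared 14.5 Mb, which was 37.4% of the tumor length and 87.2% of the control length. The same overlap over all chromosomes is not given here, so it cannot be read as particular to chromosome 8.

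The highest-scoring of these tumor gains had similar means in the control tissue in some cases and lower ones in others. The gain from 48606901 to 57230720 (score 16.3, 666 probes) had a mean of 0.25 in the tumor and 0.21 in the control tissue. That from 76236651 to 81380620 (score 13.2, 421 probes) had 0.26 and 0.22. That from 18506476 to 24389520 (score 15.4, 521 probes) had 0.27 and 0.11, and that from 108352651 to 110940845 (score 11.13, 253 probes) had 0.28 and 0.20. Among the gains named so far, the third had the widest gap between the tissues, 0.27 against 0.11. Of its probes, 339 were well above background in both channels on the tumor and 291 on the control array. The shorter gain from 10949226 to 11435820 (score 6.78, 42 probes) had a wider gap, 0.42 against 0.12, with 38 and 34 probes well above background. That gain was named after its values had been seen. Gains of either array were called for their means on that array, so a lower mean in the other tissue is partly set by the choice.

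On the control array, the highest scores belonged to the gains from 52286551 to 56681270 (score 11.7, 382 probes, mean 0.25) and from 76927626 to 81119770 (score 11.2, 345 probes, mean 0.25). The tumor had a mean of 0.27 over both, so these regions were as high in the tumor. The gain from 42287301 to 44687720 (score 10.5, 220 probes) had a mean of 0.30 in the control tissue and 0.19 in the tumor. Next came 2 short gains, from 49657701 to 49802970 with 14 probes and a mean of 1.04 (SD 1.17), and from 9792976 to 10021495 with 22 probes and a mean of 0.76 (SD 0.70). The tumor had 0.40 and 0.24 there. Only 6 of the 14 and 8 of the 22 probes were well above background in both channels on the control array.

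Window by window, the tumor and the control tissue varied together. Across the 120 windows, Pearson's r was 0.67 and Spearman's rho 0.61, given as a description, since windows share arrays, probes and brightness. The slope of control on tumor was 0.40, which depends on r as well as on the spread. By its SD over windows, 0.096 against 0.16, the control profile was the flatter one. With the brightness trend removed, both had 0.067. Among the 19 chromosomes the correlation ranked 18th, and it was 0.59 without the first 5 Mb. Both tissues were above 0 in 80 windows, or 66.7% against 45.6% of all windows, and below 0 in 15, or 12.5% against 33.9%. The tumor alone was above 0 in 14 and the control tissue alone in 11, compared with 261 and 204 of all 2271 windows. These shares were near those of all windows. The difference of tumor minus control had a median of 0.062 and ran from -0.33 to 0.30, and the tumor was the higher of the 2 in 80 windows, or 66.7% against 52.4%. With centring on the mode it was the higher one in only 32 windows, whereas it was the lower one in each of the first 4 windows with either centring. Those 4 had been named for low tumor medians, so their order is partly set by the choice. The tumor was the higher one in 62 windows with normexp, in 62 with the brightness trend removed and in 93 with the deposited ratio. For these settings and for centring on the mode, the share over all windows is not given here. With the brightness trend removed, r was 0.12. The log2 ratio of a window correlated with its reference brightness on the other array with r = -0.88 in the tumor and -0.68 in the control tissue.

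**Figure D4:**
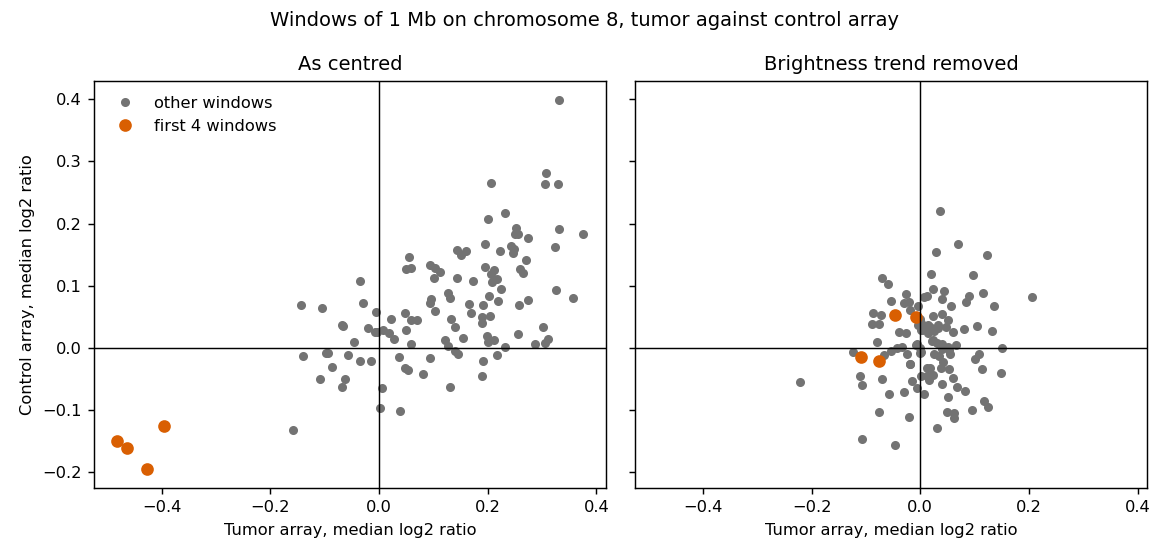
Median log2 ratio of each 1 Mb window of chromosome 8 on the tumor array (horizontal) and on the control array (vertical), as centred (left, r = 0.67) and with the brightness trend removed (right, r = 0.12). The first 4 windows, drawn large, sit alone at the lower left before the trend is removed and among the other windows after it.

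At the same brightness, probes of chromosome 8 had levels close to those of the other autosomes, except among the brightest probes. The probes were divided into 5 parts of equal number by local brightness. In the dimmest, the tumor median was 0.26 on chromosome 8 and 0.27 on the other autosomes, and the control median was 0.14 and 0.13. In the middle, the tumor had 0.15 on both, and the control tissue had 0.05 and 0.06. In the brightest, which holds the start of the chromosome, the tumor had -0.11 on chromosome 8 and -0.19 on the other autosomes, and the control tissue had -0.04 and -0.07. The chromosome 8 value was thus the higher one in this part as a whole on both arrays. There the 95% intervals of the medians, which cover the spread over probes only, did not overlap, with -0.14 to -0.093 on chromosome 8 and -0.19 to -0.18 elsewhere in the tumor, and with -0.057 to -0.019 and -0.073 to -0.066 in the control tissue. This part spans a wide range of brightness, and the probes were not matched within it. In the narrower bright range of the start interval given above, the 197 probes inside the interval were lower than the other autosomes in the tumor, with -0.44 (-0.49 to -0.41) against -0.37 (-0.38 to -0.37). The interval had been called for its low tumor ratios, so this order is partly set by the choice. On the control array, which was not used for that call, the medians were -0.13 inside (-0.20 to -0.066) and -0.16 on the other autosomes (-0.17 to -0.15). These intervals overlap, so no order is read from them.

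**Figure D5:**
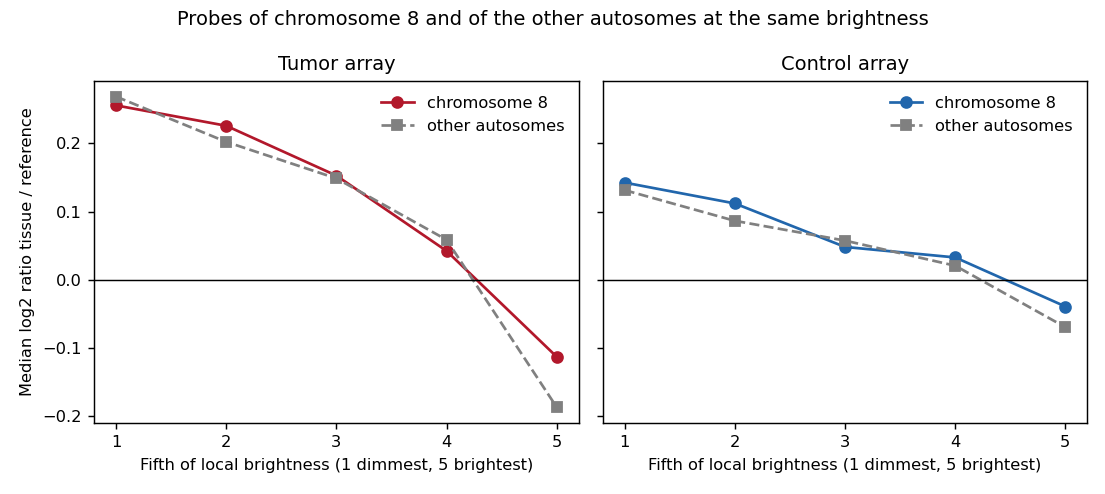
Median log2 ratio of tissue over reference in 5 equal parts of the chromosome 8 probes, ordered by local brightness from 1 (dimmest) to 5 (brightest), for chromosome 8 (solid line) and for probes of the other autosomes within the same brightness limits (dashed line), on the tumor array (left) and the control array (right). Both lines fall from left to right, from 0.26 to -0.11 for chromosome 8 in the tumor and from 0.14 to -0.04 in the control tissue.

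A few windows departed from the trend, and they are named here after their values had been seen. The window from 35 to 36 Mb was bright, with a reference signal of 270.4 on the tumor array, and yet its log2 ratio was -0.01 in the tumor and -0.02 in the control tissue. With the trend removed it was the highest of the tumor, at 0.21, with 0.08 in the control tissue. The window from 94 to 95 Mb was the lowest after removal, at -0.22 in the tumor and -0.06 in the control tissue, and had -0.07 and 0.04 before.

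Single probes varied far more than windows and agreed less between the arrays. Across the chromosome 8 probes, r between the arrays was 0.24, which ranked 18th of 19. Among the 6803 probes well above background in both channels of both arrays it was 0.45. A log2 ratio of at least 1 was found for 286 probes in the tumor, or 2.81% against 2.01% of all nuclear probes, for 496 in the control tissue, or 4.87% against 3.58%, and for 64 in both, or 0.628% against 0.404%. One of at most -1 was found for 319 probes in the tumor, or 3.13% against 3.02%, for 241 in the control tissue, or 2.37% against 2.0%, and for 40 in both, or 0.393% against 0.369%. The low shares were thus near those of all probes. Among the well measured probes the tissues had similar numbers of high values, with 64 probes of at least 1 in the tumor, or 0.941% against 0.592% of all such probes, and 65 in the control tissue, or 0.955% against 0.678%. Of these probes 39 were at most -1 in the tumor, or 0.573% against 0.566%, and 12 in the control tissue, or 0.176% against 0.160%. On both arrays 3 were at least 1 and 4 at most -1, or 0.0441% against 0.0395% and 0.0588% against 0.0578%.

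The lowest and highest probes by the mean of both arrays were mostly dim. GT_Pig_chr8_40069 at 78756351 had -1.99 in the tumor and -1.76 in the control tissue. GT_Pig_chr8_19554 at 37625301 had -1.60 and -2.14, and GT_Pig_chr8_53077 at 104070826 had -1.92 and -1.78. The tissue signal of these 3 probes was not well above background on either array, so these ratios are not measured sizes and have no order. At the other end, GT_Pig_chr8_46552 at 91744276 had 1.84 and 3.18, GT_Pig_chr8_25914 at 50898126 had 1.60 and 2.85, and GT_Pig_chr8_24323 at 47636576 had 1.92 and 2.39. No channel of GT_Pig_chr8_46552 and GT_Pig_chr8_24323 was well above background on either array, and none of GT_Pig_chr8_25914 on the tumor array, so their ratios are no measured sizes either. For GT_Pig_chr8_25914 the control tissue was at least 2.29-fold brighter than the reference, which was not well above background. Among the well measured probes, chosen after the values had been seen, GT_Pig_chr8_13346 at 24660501 was lowest, with -2.10 in the tumor and -0.89 in the control tissue and signals of 729 and 602 in the tissue channels. Its reference signal was 5935 on the tumor and 2278 on the control array.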

How the data were processed

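The authors read the scanned spots in Agilent Feature Extraction (version 11.0.1.1). Deposited were intensity values per spot, as median signals and as processed signals, background-subtracted and scaled by 1 linear dye factor. A log10 ratio, red over green, was deposited by them too, and the series table holds the same values, with a largest difference of 0. The deposited ratio was exactly 0 for 4.59% of the chromosome 8 probes on the tumor and 4.75% on the control array. Gene names, probe sequences and a build for the positions are not given in the sources used here.

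The processed signals were turned into log2 ratios of the Cy3 channel (tissue) over the Cy5 channel (reference), without loess, and centred on the median of chromosomes 1 to 18 of the same array. Control spots and outlier flags were left out, 1 on chromosome 8 of the tumor and 2 on the control array. The reference was saturated at 2 and 1 of the probes. Windows of 1 Mb needed at least 5 probes. Intervals were searched with the spread between neighbouring probes as noise, 0.401 for the tumor and 0.422 for the control array, and intervals whose mean missed the limit were dropped once the search was over. The interval search was tested on simulated data, but no outcome of that is given here and no call rests on it. Intervals of medians are 95% order-statistic intervals over probes.

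Named were the 5 lowest and highest tumor windows, the 3 lowest and highest control windows, the intervals with the 5 highest scores and the 3 lowest and highest probes. Where marked in the text, other items were named after their values had been seen. The chromosome, the lists and these rules were chosen with earlier results of these data known.

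Intervals were searched with numba 0.67.0 and numpy 2.4.6, the lowess trend (fraction 0.3) was fitted with statsmodels 0.14.6, figures were drawn with matplotlib 3.10.9, and tables were handled with pandas 2.3.3 and scipy 1.17.1 under Python 3.11.15. Normexp was run in limma 3.58.1 (R 4.3.3) with an offset of 50.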

Additional observations from a re-analysis of the deposited data

How the results depend on the processing

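With 1 array per tissue, the values have no replicate check, and the signal limits them, since both channels were well above background for 73.6% of the chromosome 8 probes in the tumor and 68.3% in the control tissue. The main results were computed again under the alternative settings. Of these pairs of result and setting, 70 moved little, 59 moved and 2 were reversed, both by turning the ratio to red over green. For the medians of the 2 called tumor intervals in both tissues, 13 such pairs moved little, 6 moved and 8 were reversed. The cause was not tested. Turning the ratio to red over green reverses each sign by construction, to -0.11 and -0.054 for the chromosome medians of tumor and control, 0.42 and 0.13 for the start interval and 1.39 and 0.24 for the 3-probe interval.

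With the brightness trend removed, the chromosome medians were 0.016 and 0.0096 (ranks 3 and 6), the SD over windows 0.067 on both arrays, and r between the tissues 0.12. Windows at or above 0.25 or at or below -0.25 then made up 0 in each tissue, the start interval had 0.022 in the control tissue, and 4 tumor and 2 control intervals were called, or 4 (1 of them a gain) and 6 with the limit during the search.

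Centring on the mode turned the order of the tissues, with medians of 0.053 and 0.13 and the tumor higher in 32 of 120 windows, and gave 9.17% and 10.8% of windows at or above 0.25. Normexp gave a control median of 0.089 and a control SD of 0.13, 7.5% of tumor windows at or above 0.25, 3.33% of control windows at or below -0.25, 1 interval in each tissue, which was the loss at the start (mean -0.53 and -0.37), medians of -0.54 and -0.33 for the start interval, and 0.047 and 0.12 for the 3-probe interval. The deposited ratio gave a control median of 0.0063 (rank 2), as did the series table, SDs of 0.14 and 0.061, 10.8% and 0% of windows at or above 0.25, and r of 0.54. With probes well above background, the control SD was 0.076, 0% of control windows were at or above 0.25, and 1 tumor interval was called. Of the 3-probe interval, only 1 probe, GT_Pig_chr8_57440, was then left on the control array, with 0.14.

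Windows of 5 Mb gave SDs of 0.14 and 0.056, 8.33% and 0% at or above 0.25, and r of 0.77. Windows of 0.5 Mb gave a control SD of 0.12. A limit of 0.1 put 59.2% and 33.3% of windows above it and 5% of control windows below its negative, and a limit of 0.4 put 0% above it in both. Without the first 5 Mb, chosen after seeing the data, the tumor SD was 0.13 and 0% of tumor windows were at or below -0.25.

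The tumor had 1 interval with a score of at least 12, with at least 10 probes or with the larger noise, 18 with the limit during the search and 14 after subtraction of the control array, among them the start loss (mean -0.32). The control array had 1 with a mean of at least 0.1 and 16 with the limit during the search. With that limit, the deposited ratio gave 18 and 15 and probes well above background 12 and 3, both chosen after seeing the data. A trend on GC content was not run, because the files give no sequences. No paired analysis was possible because each tissue has 1 array.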
